A study of Homo sapiens with 12 samples.

Results

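The 2′-5′-oligoadenylate synthetase (OAS) family was examined in WM-266-4 cells, a human melanoma line, that re-expressed the receptor tyrosine kinase TYRO3. The 4 genes of the family, OAS1, OAS2, OAS3 and OASL, were chosen by family membership with earlier results of these libraries in view, in which the transcripts of interferon-induced genes stood apart from control. Their levels against control are therefore a description, and the p-values of these genes carry no independent support. All 4 were among the 35579 genes with a matched transcript, and all 4 were among the 15098 genes that passed the filter on low counts.

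All cells carried a stable lentiviral knock-down of TYRO3 by a short hairpin RNA, kept under puromycin, and were transfected with a plasmid and starved of serum overnight. The plasmids were pEZY-myc-his GFP (control), pEZY-myc-his TYRO3 wild-type (WT), TYRO3 ΔGS with the change I449A at the gamma-secretase cleavage site, and TYRO3 ΔADAM with the changes P408A, L409P and G419P at predicted cleavage sites of the ADAM sheddases. The labels name GFP as the insert of the control plasmid, whereas the study's text speaks of a vector control, and the labels were followed. Polyadenylated RNA was sequenced in 3 experiments with 1 library of each plasmid in each, which gives 12 libraries in 4 groups of 3. The cells come from 1 line with 1 knock-down, and no library of untransfected cells was analysed here.

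OAS proteins sense double-stranded RNA in the cytosol. OAS1, OAS2 and OAS3 then join ATP into 2′-5′-linked oligoadenylates (2-5A), a second messenger of the antiviral response. The genes are classical targets of type I and type III interferon, whose receptors signal through JAK1 and TYK2 to a complex of transcription factors, among them STAT2 and IRF9, that binds a promoter element with repeated GAAA cores. OASL has lost the synthetase activity and carries ubiquitin-like domains instead.

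In GRCh38 the family lies on chromosome 12 at 2 loci. OAS1 (ENSG00000089127.12) spans chr12:112906777-112933222, OAS3 (ENSG00000111331.12) chr12:112938352-112973249 and OAS2 (ENSG00000111335.12) chr12:112978395-113011723, next to each other on the plus strand. OASL (ENSG00000135114.12) spans chr12:121019111-121039242 on the minus strand. All 4 are annotated as protein coding.

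The element bound by this complex of transcription factors is shown for the members with a promoter entry, because it is the sequence through which interferon acts on this family. Promoters of RefSeq (GRCh38.p14) were searched on both strands for 2 GAAA cores with 2 bases between them (GAAANNGAAA) and with 1 base between them (GAAANGAAA), and OAS1 and OAS3 have an entry. Each line below shows 30 bases on the plus strand, which is the strand of the gene, with the match in capitals.
OAS3, chr12:112938321-112938350: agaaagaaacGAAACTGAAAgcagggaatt
OAS3, chr12:112938452-112938481: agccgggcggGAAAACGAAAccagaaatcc
OAS3, chr12:112938316-112938345: ctgctagaaaGAAACGAAActgaaagcagg
OAS1, chr12:112906935-112906964: cccttctgagGAAACGAAAccaacagcagt

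The matches of OAS3 begin 143, 12 and 148 bases before its RefSeq start, and the match of OAS1 begins 17 bases before its start. The third match of OAS3 shares bases with the first. The RefSeq starts differ from the GENCODE starts. The match of OAS1 and the second match of OAS3 lie inside the gene spans given above. The spacing of 2 bases was found in the promoter of OAS3 and not within this window of OAS1, and in 1255 of 35116 promoters of the same length (3.57%). The spacing of 1 base was found in both members and in 1097 promoters (3.12%). A match is a run of letters and not a measured binding site.

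The transfected gene was checked first. TYRO3 lay between 27.7 and 36.4 TPM in the control libraries, between 780 and 1687 TPM with WT, between 733 and 1959 TPM with ΔGS and between 640 and 1789 TPM with ΔADAM. TPM counts transcripts per length, scaled to the same sum in every library, and was the scale on which genes were compared with each other. The totals of estimated counts ran from 4008293 to 38184838 with a median of 23302002. The lowest was the control library of experiment 1, and the next was 18365999. All 8 markers of the melanocyte lineage were above 0 in the 12 libraries, and their summed level was 1643 to 1989 TPM in control, 1068 to 1987 TPM with WT, 1096 to 1605 TPM with ΔGS and 1103 to 1659 TPM with ΔADAM. The summed level of the 5 leukocyte markers was at most 3.74 TPM, with the T cell gene CD3E at 0 in 11 libraries, and that of the 2 endothelial markers was at most 1.79 TPM. Of the 2 keratinocyte markers, KRT5 was at 0 in all 12 libraries. PMEL, at 709 to 1256 TPM, made up most of the melanocyte sums, and the sums with WT and with ΔADAM overlapped control. TYRP1 went the other way, at 0.251 to 1.33 TPM in control, 1.40 to 3.81 TPM with WT, 1.68 to 2.70 TPM with ΔGS and 1.43 to 3.21 TPM with ΔADAM. The part of the melanocyte levels in the results below was not tested. In bulk RNA, more cells that express a gene and more RNA in each cell cannot be told apart.

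Summed over its transcripts, each of the 4 genes was more abundant with each TYRO3 construct than in the control of the same experiment. Compared within experiments across all genes, OAS1, OAS2 and OAS3 were 6.92 to 12.4 times as high as control, and OASL 2.60 to 2.81 times. WT, ΔGS and ΔADAM gave levels that were close to each other within an experiment, and the experiments differed more than the constructs did. Genes that act on 2-5A were not called.

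OAS1 makes short oligoadenylates and is the smallest of the active enzymes. In control its level was 0 TPM in experiment 1, 3.05 TPM in experiment 2 and 0.763 TPM in experiment 3. With WT it was 11.5, 29.2 and 5.75 TPM in the same order, with ΔGS 13.2, 33.7 and 6.07 TPM, and with ΔADAM 14.4, 41.6 and 5.91 TPM. Every construct library was above every control library. The zero of experiment 1 was a count of 0 in the library with the lowest total, which allows up to 3 counts, and this limit covers counting error only.

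OAS2 has a pair of synthetase domains, of which the second is active. Its control level was 0.148 TPM in experiment 1, from 2 counts, 3.33 TPM in experiment 2 and 0.923 TPM in experiment 3. The corresponding levels were 17.0, 45.9 and 8.11 TPM with WT, 21.5, 49.6 and 5.99 TPM with ΔGS and 21.3, 60.4 and 6.84 TPM with ΔADAM. The control and construct libraries did not overlap.

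OAS3 is the largest member and the synthetase with the highest affinity for long double-stranded RNA. In control it was at 0.823 TPM in experiment 1, from 14 counts, at 11.1 TPM in experiment 2 and at 2.86 TPM in experiment 3. With WT the levels were 32.9, 72.8 and 13.1 TPM, with ΔGS 43.0, 62.2 and 10.0 TPM, and with ΔADAM 42.3, 72.4 and 12.2 TPM. The ΔGS library of experiment 3 fell just below the control library of experiment 2, whereas the WT and ΔADAM libraries were all above control.

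OASL had the highest median level of the family in control. It was at 6.58, 7.93 and 3.89 TPM in the control libraries of experiments 1, 2 and 3, and 30 counts stood behind the first of these. WT gave 11.8, 25.0 and 9.52 TPM, ΔGS gave 15.3, 22.2 and 9.23 TPM, and ΔADAM gave 13.1, 30.2 and 7.81 TPM. The ΔADAM library of experiment 3 was marginally below the control library of experiment 2, and the WT and ΔGS libraries were above all controls.

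**Figure D1:**
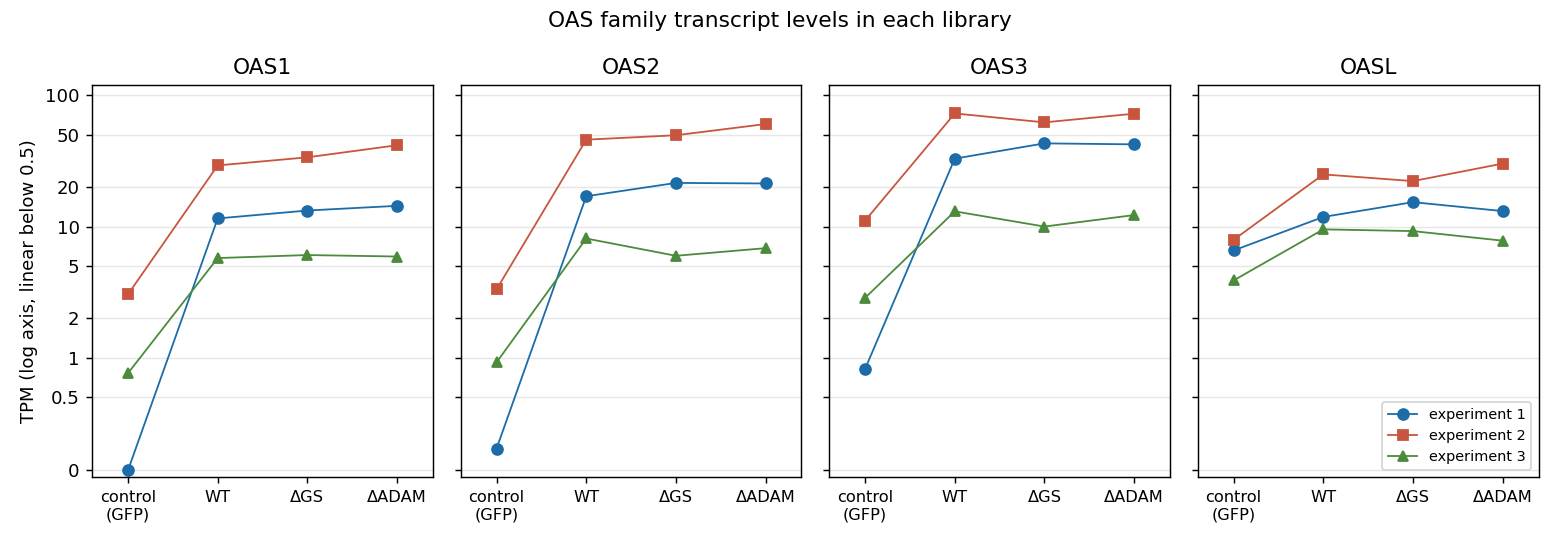
Level of each OAS gene in TPM (log axis, linear below 0.5) in the 12 libraries, by group, with lines that join the 4 libraries of 1 experiment. Control is lowest in each experiment for all 4 genes, and among the construct libraries experiment 2 is highest and experiment 3 lowest.

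With WT, all 3 libraries were above all 3 controls for 4 of the 4 genes, with ΔGS for 3 and with ΔADAM for 3. Of all genes tested, 13.3% had all 3 libraries above the controls with WT, 9.66% with ΔGS and 14.1% with ΔADAM. Experiment 2 gave the highest and experiment 3 the lowest level in 12 of the 12 combinations of gene and construct. Within a group the highest library was between 2.40 and 8.83 times the lowest with the constructs, so that the mean of OAS2 with ΔADAM, for example, was 29.5 TPM ± 27.7 (SD, n = 3). The SD was thus close to the mean for OAS2 with ΔADAM.

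Each construct was then set against the control of its own experiment. On CPM, which are counts scaled to the library size and here to TMM factors, the 36 ratios of a construct over the control of its experiment were all above 1, as were the lower limits of their 95% counting intervals (exact binomial) or, where the control had 0 counts, their lower bounds. The lowest of the 36 was 2.02. Of all genes tested, 24.1% had a CPM above control in each of the 3 experiments with WT, 23.7% with ΔGS and 24.7% with ΔADAM.

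For OAS1 the ratio in experiment 1 was a lower bound, set by the floor of 3 counts in that control library. It was at least 13.9-fold higher with WT, at least 15.8-fold higher with ΔGS and at least 17.0-fold higher with ΔADAM. The ratios were 9.34, 9.46 and 12.9 in experiment 2 and 5.47, 7.78 and 6.48 in experiment 3, again for WT, ΔGS and ΔADAM. The OAS1 ratio was lowest in experiment 3 for each construct.

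For OAS2, experiment 1 gave ratios of 57.1, 70.0 and 70.6 for WT, ΔGS and ΔADAM, and because the control had 2 counts the interval of the first ran from 15.7 to 473. Experiment 2 gave 11.7, 10.8 and 14.3, and experiment 3 gave 6.76, 7.06 and 6.40. The ratios of OAS2 differed by less between constructs than between experiments.

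For OAS3 the ratios were 28.2, 35.4 and 33.1 in experiment 1, 6.58, 6.14 and 7.43 in experiment 2 and 4.74, 4.40 and 4.52 in experiment 3. OASL differed from the other genes in that experiment 1 did not stand out. Its ratios were 2.03, 2.71 and 2.32 in experiment 1, 3.20, 2.87 and 3.91 in experiment 2 and 2.37, 2.51 and 2.02 in experiment 3. The high ratios of OAS1, OAS2 and OAS3 in experiment 1 rested on the shallowest control library.

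**Figure D2:**
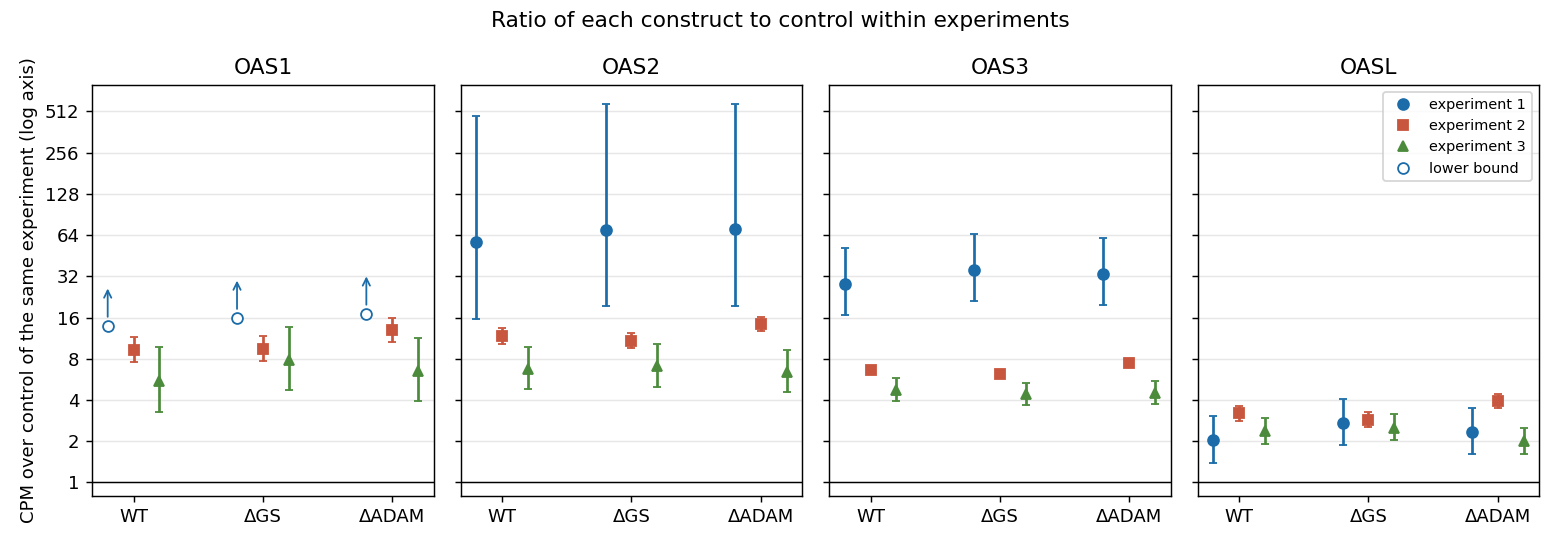
Ratio of the CPM of each construct to that of the control of the same experiment (log axis), with 95% counting intervals. Open symbols with arrows are lower bounds for OAS1 in experiment 1, where the control had 0 counts, and all points and intervals lie above 1.

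A pair of models was fitted across all genes, and they gave close sizes with different errors. The first had a batch term that sets experiment 1 apart from the other 2 experiments. It gave log2 fold changes over control with WT of 3.15 ± 0.96 (SE) for OAS1, 3.46 ± 1.07 for OAS2, 2.89 ± 0.97 for OAS3 and 1.39 ± 0.53 for OASL. None of the 4 genes was called with WT, ΔGS or ΔADAM (a fold change above 1.5 with an adjusted p no higher than 0.05), and their edgeR adjusted p-values lay between 0.0784 (OAS1 with ΔADAM) and 0.248 (OASL with WT). Unadjusted, all 4 genes had an edgeR p under 0.05 in each comparison, the highest being 0.0242 (OASL with WT), as did 15.2%, 19.2% and 20.4% of all genes tested with WT, ΔGS and ΔADAM. DESeq2 with the same batch term called OAS1, OAS2 and OAS3 higher in each, and 1.46%, 2.29% and 2.71% of all genes tested. In the edgeR model 0.0397% of all genes tested were called higher with WT, 0.278% with ΔGS and 0.616% with ΔADAM.

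The model with a term for each experiment (replicate block) compares the libraries of 1 experiment with each other, as the shared experiment numbers allow. The log2 fold changes with WT were then 3.16 ± 0.29 for OAS1, 3.43 ± 0.26 for OAS2, 2.79 ± 0.31 for OAS3 and 1.38 ± 0.19 for OASL. As folds these were 8.97 (95% interval 5.75 to 14.0), 10.8 (7.22 to 16.2), 6.92 (4.32 to 11.1) and 2.60 (1.96 to 3.45). The 4 genes were called higher in each of the 3 comparisons, with edgeR adjusted p-values from 0.000147 (OAS2 with ΔADAM) to 0.00549 (OASL with WT). In this model 1.66% of all genes tested were called higher with WT, 2.81% with ΔGS and 3.15% with ΔADAM. Nothing is read from these counts for the members, since they were chosen with results of the same comparison known.

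The folds with the cleavage-resistant variants had the same order of genes. With ΔGS they were 10.4 (6.71 to 16.3) for OAS1, 11.4 (7.64 to 17.1) for OAS2, 7.21 (4.49 to 11.6) for OAS3 and 2.81 (2.11 to 3.73) for OASL in the model with a term for each experiment. With ΔADAM they were 11.4 (7.34 to 17.6), 12.4 (8.28 to 18.4), 7.53 (4.70 to 12.1) and 2.79 (2.11 to 3.70). The 3 comparisons share the control libraries and are not independent of each other. Among the 15098 genes ranked by log2 fold change in that model, OAS2 was at places 12 to 14, OAS1 at places 13 to 15, OAS3 at place 20 in each and OASL at places 150 to 177. The median log2 fold change of the 4 genes was 2.98 with WT, 3.12 with ΔGS and 3.21 with ΔADAM, against medians of -0.0025, 0.0066 and -0.0021 over all genes tested.

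Leaving out each of the 12 libraries in turn from this model kept all 4 genes called in all 3 comparisons, where 0.502 to 2.26% of all genes tested were called higher with WT, 1.34 to 3.06% with ΔGS and 1.07 to 3.42% with ΔADAM. The log2 fold changes with WT then ran from 3.04 to 3.36 for OAS1, from 3.27 to 3.69 for OAS2, from 2.48 to 3.10 for OAS3 and from 1.14 to 1.52 for OASL. The low end of OAS1 and OAS3 came without the control library of experiment 1, the shallowest library. Without that library the changes with WT were 3.04 for OAS1, 3.30 for OAS2, 2.48 for OAS3 and 1.44 for OASL. With experiments 2 and 3 alone and a term for each, they were 3.02, 3.34, 2.54 and 1.5, and the 4 genes were called in the 3 comparisons, as were 0.314%, 0.983% and 1.14% of all genes tested in the same direction.

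The constructs were compared with each other to ask whether receptor cleavage mattered for the family. Within experiments the ratio of ΔGS over WT ran from 0.897 to 1.42, that of ΔADAM over WT from 0.850 to 1.38 and that of ΔADAM over ΔGS from 0.803 to 1.36 across the 4 genes. OAS1 was higher with ΔADAM than with WT in 3 of 3 experiments, by 1.18 to 1.38 times, and with ΔGS than with WT in 3 of 3, by 1.01 to 1.42 times. Its 95% counting intervals included 1 for ΔGS over WT in experiments 1 and 2 (0.950 to 1.38 and 0.902 to 1.14). The same held for ΔADAM over WT in experiment 3 (0.920 to 1.53). The share of all genes with the same sign in 3 of 3 experiments was not counted, so nothing is read from this for OAS1. The other genes changed direction between experiments.

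WT against the mean of both variants gave folds of 0.822 (95% interval 0.620 to 1.09) for OAS1, 0.910 (0.701 to 1.18) for OAS2, 0.939 (0.663 to 1.33) for OAS3 and 0.929 (0.749 to 1.15) for OASL in the model with a term for each experiment. ΔGS against ΔADAM gave 0.918 (0.669 to 1.26), 0.925 (0.688 to 1.24), 0.956 (0.642 to 1.42) and 1.01 (0.788 to 1.28). No gene of the family was called in either comparison, and 0% of all genes tested were called by edgeR in both models. At an unadjusted p under 0.05, 119 genes passed in each comparison in the model with the batch term, and 237 and 216 in the model with a term for each experiment. DESeq2 called 1 gene in each. All 8 intervals include 1, and a difference between constructs within these intervals was not detectable with 3 experiments. OAS1, the gene that was lowest with WT, had the interval that reached furthest below 1.

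The balance within the family differed between control and constructs. Summed over the 4 genes, the level was 7.55, 25.4 and 8.43 TPM in the controls of experiments 1, 2 and 3, and 73.3, 173 and 36.4 TPM with WT. OASL made up a median of 46.1% of this sum in control (range 31.2 to 87.1%, the highest in experiment 1, where 46 counts of the family were behind it) and 16.2% with the constructs (13.2 to 29.5%), without overlap. OAS2 went the other way, with a median of 11% in control (1.97 to 13.1%) and 23.2% with the constructs (19.1 to 29.6%), and OAS1 likewise with 9.05% (0 to 12%) and 16.9% (14.2 to 20.3%). The share of OAS3 overlapped, with 33.9% (10.9 to 43.7%) and 37.3% (32 to 46.4%). OAS3 was the most abundant member in 9 of 9 construct libraries, while OASL was the most abundant in 2 of 3 controls. OAS2 was second in 6 of the 9 construct libraries and OASL in the other 3, which were those of experiment 3. OAS1 and OASL exchanged places between experiments. The ranges of neighbours in this order overlapped in every construct group.

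The transcripts of the family were described next, since the forms of an OAS gene differ in their C-terminus and location. The files hold 29 annotated transcripts of the 4 genes, 11 of OAS1, 7 of OAS2, 7 of OAS3 and 4 of OASL. The division of reads between transcripts that share exons is an estimate of kallisto, and the values of short or partial transcripts are uncertain.

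OAS1 was mostly OAS1-201, with a mean of 85.5% of the TPM of the gene over the 11 libraries with a value. OAS1-201 has 400 codons and ends in a signal for prenylation, which attaches the protein to membranes, whereas OAS1-203 with 364 codons has another last exon. The ends of their coding sequences are shown because they tell the forms apart. Each line gives the last 30 bases with the stop codon, from GENCODE 29 (GRCh38, plus strand), with the last 4 codons before the stop in capitals.
OAS1-201, chr12:112919524-112919553: gaagaggactggaccTGCACCATCCTCtga
OAS1-203, chr12:112917728-112917757: ttcatccctgcccctCTCCATGAAGCTtga

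OAS1-201 was at 0, 2.81 and 0.607 TPM in the controls of experiments 1, 2 and 3, at 10.2, 27.1 and 4.05 TPM with WT, at 11, 27.6 and 5.60 TPM with ΔGS and at 12, 36.9 and 5.17 TPM with ΔADAM. Its share of the gene was 70.5 to 92.6% in the construct libraries. OAS1-203 was listed at 0 in all 3 controls, reached at most 1.09 TPM with the constructs and made up a mean of 1.87%. The difference of OAS1 from control lay for the most part in OAS1-201.

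OAS2 was divided between OAS2-202 with 687 codons, a mean of 43.0%, and OAS2-203 with 172 codons, a mean of 41.7%. The first mean includes the control of experiment 1, where 2 counts made OAS2-202 100% of the gene. Of the summed TPM of the construct libraries, OAS2-203 held 41.5%, OAS2-202 39.1% and OAS2-204, annotated as a retained intron, 14.1%. OAS2-204 was at 0 in every control library and at 0 to 27.9% of the gene in the construct libraries. With WT, OAS2-202 was at 5.33, 21.7 and 2.73 TPM against 0.148, 2.02 and 0.261 TPM in control, and OAS2-203 was at 8.90, 18.7 and 3.12 TPM against 0, 1.14 and 0.506 TPM. The form with 687 codons and the short form were both above the control of their experiment with WT.

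OAS3 was led by the full-length OAS3-201 with 1087 codons and a mean of 61.1%. It was at 0.719, 6.22 and 1.27 TPM in control and at 23.5, 41.8 and 6.57 TPM with WT. The shorter OAS3-207 (177 codons) and OAS3-205 (223 codons) made up means of 20.5% and 10.6%.

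OASL was divided between OASL-201 with 514 codons (45.0%), OASL-202 with 255 codons (32.5%) and OASL-204 with 384 codons (16.2%). OASL-201 was at 1.15, 3.63 and 1.82 TPM in control and at 5.11, 12.9 and 4.35 TPM with WT. Of the 29 transcripts, 17 passed the filter of a test per transcript with the batch term. The log2 fold change over control was above 0 in 16 of them with WT, 16 with ΔGS and 17 with ΔADAM. OAS1-203, OAS1-211 and OAS2-204 had 0 counts in every control library and passed the filter through construct libraries, so their direction was fixed in advance. The median over all transcripts tested was 0.05 with WT, 0.06 with ΔGS and 0.06 with ΔADAM. Transcripts of the same gene share reads, so the counts of transcripts here and below are not independent. None was called by edgeR, and the lowest adjusted p-values were 0.985, 0.630 and 0.643. At an unadjusted p under 0.05, 11 of the 17 transcripts passed with each construct, against 4.78%, 6.21% and 5.7% of the 69182 transcripts tested. OAS1-203, OAS1-211 and OAS2-204 were among the 11 with each construct, so nothing is read from these counts. With a term for each experiment edgeR called none of the 17 either, with lowest adjusted p-values of 0.113, 0.0942 and 0.0964. In that model 12, 13 and 12 of the 17 passed an unadjusted p under 0.05, against 5.81%, 7.48% and 6.87% of all transcripts tested. The 17 again include OAS1-203, OAS1-211 and OAS2-204, and nothing is read from these counts either. Of all transcripts tested, 0.00578% were called higher with each construct with the batch term, and 0.00867%, 0.00867% and 0.00578% with a term for each experiment.

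**Figure D3:**
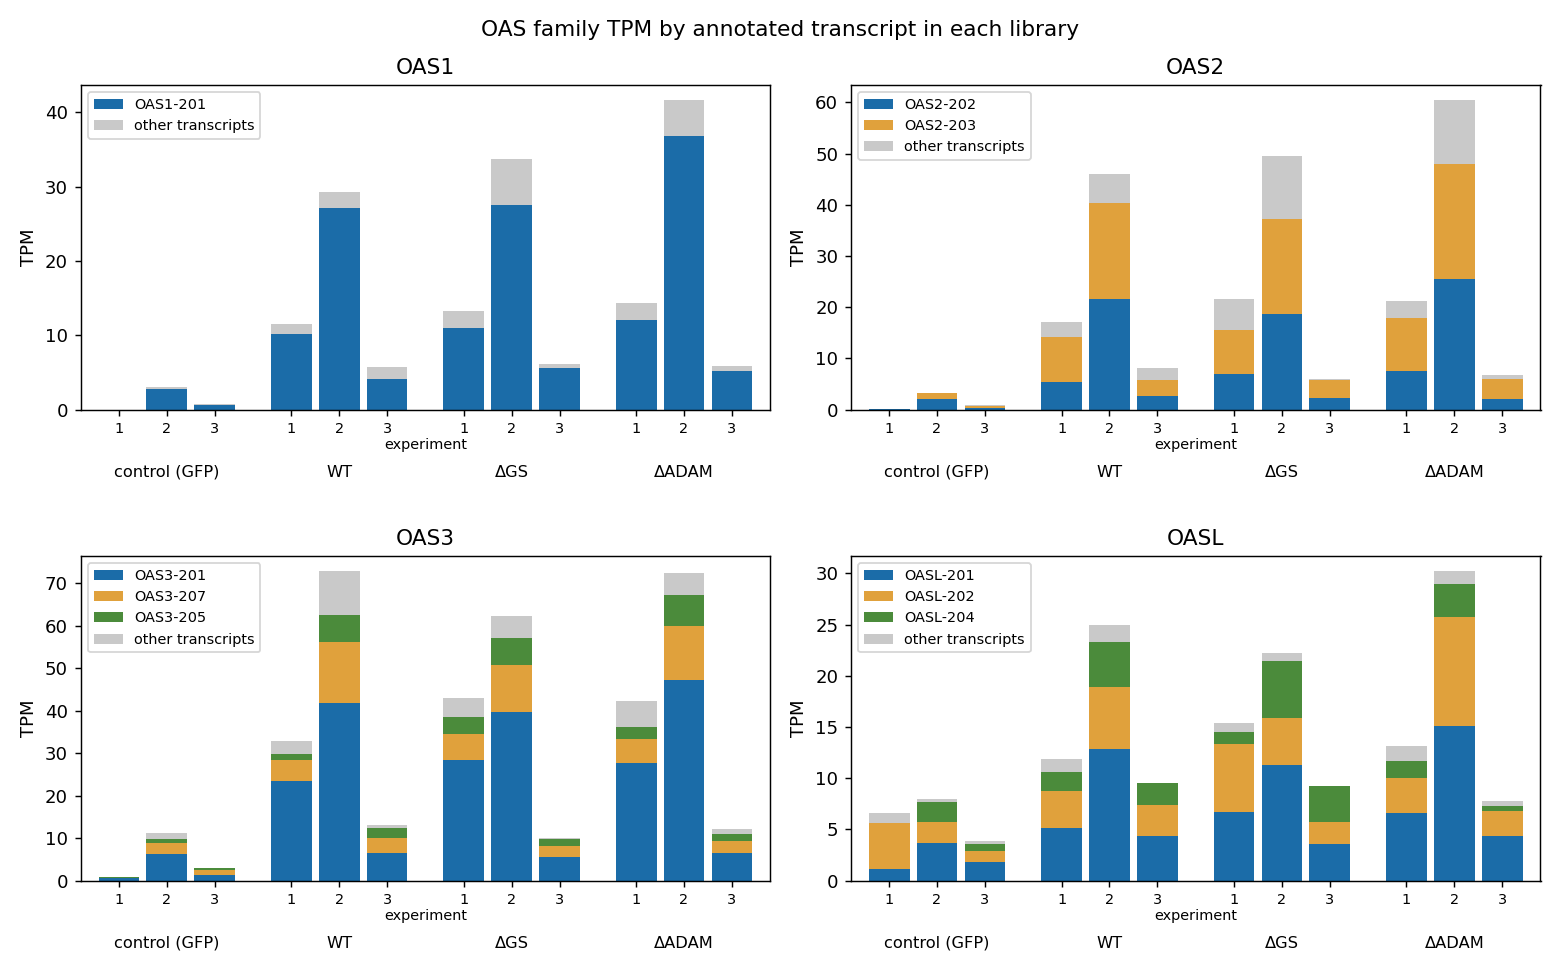
TPM of the annotated transcripts of each OAS gene in the 12 libraries, stacked, with transcripts under 10% of the gene on average drawn as other. OAS1-201 fills most of the OAS1 bars. OAS2, OAS3 and OASL are divided between several transcripts, apart from OAS2 in the control of experiment 1. OAS2-204 is drawn as other and is at 0 in every control.

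None of the 3 genes described around 2-5A passed the test. ABCE1 encodes an ATPase that recycles ribosomes and is also tied to the 2-5A pathway, PDE12 a phosphodiesterase that degrades 2-5A, and AKAP7 an anchoring protein with a 2-5A phosphodiesterase-like domain. PDE12 was at 26.2, 31.3 and 29.4 TPM in the controls of experiments 1, 2 and 3, at 31.4, 32.9 and 32.1 TPM with WT, at 30.3, 32.2 and 19.8 TPM with ΔGS and at 31.9, 30.1 and 29.7 TPM with ΔADAM. The 3 WT libraries of PDE12 were above the 3 controls, while those of ΔGS and of ΔADAM overlapped control. Of the 3 genes, 0 were called by edgeR in any comparison with control in either model, and DESeq2 called 0. At an unadjusted p under 0.05, 0 passed with the batch term and 1 (AKAP7 with ΔADAM) with a term for each experiment. Of the 15098 genes tested, 3241 with WT, 4022 with ΔGS and 4136 with ΔADAM passed in the model with a term for each experiment. The median log2 fold change of the 3 was 0.03 with WT, -0.03 with ΔGS and 0.01 with ΔADAM in that model. The values nearest to a call were those of AKAP7, with 0.13 ± 0.11, 0.21 ± 0.11 and 0.26 ± 0.11 for WT, ΔGS and ΔADAM.

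Of 5 transcription factors that drive OAS genes, 3 were called higher with each construct in the model with a term for each experiment. In that model 1.66%, 2.81% and 3.15% of all genes tested were called higher with WT, ΔGS and ΔADAM. Of the 3 called factors, IRF1, which binds the same promoter elements, changed most, by 1.40 ± 0.13 with WT, 1.71 ± 0.13 with ΔGS and 1.67 ± 0.13 with ΔADAM on the log2 scale. STAT2 rose by 0.61 ± 0.12, 0.67 ± 0.12 and 0.71 ± 0.12, and IRF9 by 0.73 ± 0.16, 0.81 ± 0.16 and 0.75 ± 0.16. The median log2 fold change of the 5 factors was 0.73, 0.81 and 0.75. In the edgeR model with the batch term only IRF1 was called, with ΔGS and ΔADAM. DESeq2 with the batch term called IRF1 with each construct and STAT2 with ΔADAM.

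IRF3, which is activated by phosphorylation when viral RNA is sensed, was at 0.05, 0.19 and 0.09 and was not called. IRF7, itself a target of interferon, was at 0.98 ± 0.73, 2.17 ± 0.70 and 1.12 ± 0.71 and was not called either. IRF7 was at 0.620 to 3.08 TPM in control, and its levels varied by up to 4.97 times within a group.

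Of the 6 genes for interferon ligands, receptor chains and kinases, 5 passed the filter and 0 were called by edgeR with any construct in either model, nor by DESeq2. At an unadjusted p under 0.05, 0 passed with the batch term and 1, IFNB1 with WT and with ΔGS, with a term for each experiment. In the latter model 3241 with WT and 4022 with ΔGS of the 15098 genes tested passed. The median log2 fold change of the list was 0.03 with WT, -0.02 with ΔGS and 0.02 with ΔADAM. IFNB1, the gene of interferon beta, was at 0 to 0.419 TPM in control, 0.361 to 2.0 TPM with WT, 0.565 to 1.84 TPM with ΔGS and 0.154 to 1.27 TPM with ΔADAM. Its log2 fold changes were 1.59 ± 0.64, 1.78 ± 0.62 and 0.83 ± 0.66, with edgeR adjusted p-values of 0.179, 0.0957 and 0.457. IFNB1 had 0, 6 and 4 counts in the controls of experiments 1, 2 and 3. Its highest values were 0.884 CPM with WT, 0.794 with ΔGS and 0.574 with ΔADAM, all in experiment 2, against at most 0.202 in control. It passed the filter through these construct libraries, so its tests carry no support. IFNL1, the gene of interferon lambda 1, did not pass the filter, and was at 0 to 0.0664 TPM in control and at 0.0847 to 0.815 TPM with the constructs. IFNAR1 and IFNAR2, the chains of the type I receptor, and the kinases JAK1 and TYK2 had log2 fold changes between -0.14 and 0.13.

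Other proteins that bind or edit double-stranded RNA, or signal from it, were mostly higher. Of the 8, 5 were called higher with WT, 5 with ΔGS and 6 with ΔADAM in the model with a term for each experiment, against 1.66%, 2.81% and 3.15% of all genes tested. TLR3, the endosomal receptor of double-stranded RNA, rose by 1.62 ± 0.18, 1.69 ± 0.17 and 1.91 ± 0.17 with WT, ΔGS and ΔADAM. DDX58, which encodes the sensor RIG-I, rose by 1.12 ± 0.13, 1.16 ± 0.13 and 1.17 ± 0.13, and IFIH1, which encodes MDA5, by 0.70 ± 0.12, 0.73 ± 0.12 and 0.81 ± 0.12. DHX58 and EIF2AK2, the gene of the kinase PKR, were called higher with each construct as well.

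ZC3HAV1, an antiviral zinc-finger protein, was called higher with ΔADAM. The RNA-editing enzyme ADAR stayed under the fold threshold with 0.56, 0.43 and 0.51, and MAVS, the adaptor of RIG-I and MDA5, was at -0.00, -0.16 and -0.09. In the edgeR model with the batch term only TLR3 was called, with ΔADAM. DESeq2 called TLR3 with each construct and EIF2AK2 with ΔADAM. The median log2 fold change of the 8 genes with a term for each experiment was 0.69 with WT, 0.76 with ΔGS and 0.80 with ΔADAM. This median was smaller than the change of any OAS gene, but TLR3 changed more than OASL, which was at 1.38, 1.49 and 1.48.

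**Figure D4:**
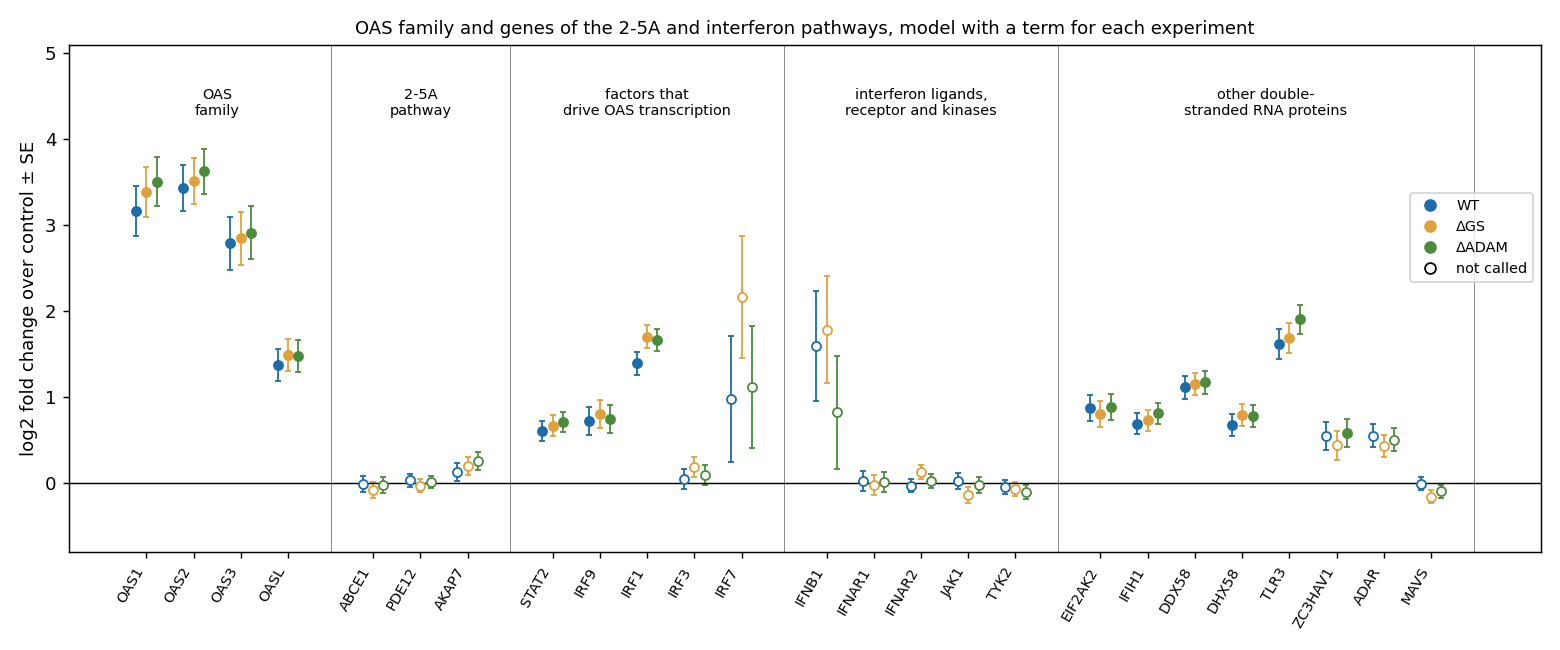
Log2 fold change over control with standard error for the OAS family and 4 lists of genes around it, from the model with a term for each experiment, with filled symbols for called genes. The 4 OAS genes lie between 1.38 and 3.63, ABCE1, PDE12 and AKAP7 lie near 0, and STAT2, IRF9, IRF1 and 5 genes of double-stranded RNA are called with all constructs.

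The genes most like the family across the 12 libraries were found by Pearson correlation of log2(CPM + 1), centred within each experiment, with the mean of the 4 genes. They were IFIT5 (r = 0.999), CMPK2 (0.998), USP18 (0.998), PARP12 (0.995) and PARP9 (0.994). The libraries share experiments and the same control, so that these values describe a common difference between control and constructs. The members themselves had 1.000 (OAS2), 0.998 (OAS1), 0.991 (OAS3) and 0.944 (OASL), but each member is part of the mean, which raises its value. The 5 genes outside the family were picked as the highest of all genes tested, so the members are not ranked against them. IFIT5, a protein that binds viral RNA, was at 4.29 to 14.0 TPM in control and 18.0 to 40.5 TPM with WT. USP18, which removes the ubiquitin-like modifier ISG15, was at 0.440 to 3.70 TPM in control and 6.18 to 21.7 TPM with WT. Both were above all controls with WT.

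The genes next to the family on chromosome 12 were examined as well, and none was called higher with any construct. The 12 nearest protein-coding genes tested, 3 on each side of the OAS1-OAS3-OAS2 cluster and of OASL, lie 2609 to 487939 bases away. Their log2 fold changes ran from -1.10 to 0.68 with WT, from -1.53 to 0.53 with ΔGS and from -1.44 to 1.02 with ΔADAM in the model with a term for each experiment. P2RX7, the gene of an ATP-gated channel 93577 bases from OASL and named here after its value was seen, was called lower with ΔGS and with ΔADAM. In the model with the batch term 0 of the 12 were called.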

How the data were processed

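RNA of 12 libraries was sequenced by the authors as 75 bp paired reads (TruSeq stranded mRNA). Reads were checked with FastQC 0.11.9, trimmed with PRINSEQ and Trimmomatic 0.33 and pseudoaligned with kallisto 0.46.0 to Ensembl 96 (GRCh38). The deposited values are estimated counts and TPM per transcript and library. The batch correction and library-size normalization of the study come after these files and were not applied to them. Libraries were assigned to group and experiment by their titles. The totals ranged from 4008293 to 38184838 counts, so that low genes are least precise in the control library of experiment 1.

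Estimated counts and TPM were summed per gene by matching transcript identifiers without version to GENCODE 29, which placed 169797 of 188753 transcripts and 97.4 to 97.5% of the counts. Summed counts were rounded and tested in edgeR 4.0.16 (R 4.3.3) by its quasi-likelihood method, with TMM factors and filterByExpr (minimum count 10, minimum total 15). Besides the 4 groups, the model had a batch term that sets experiment 1 apart from the other 2, and the 5 comparisons were adjusted by Benjamini and Hochberg over the 15098 genes. Calls needed a fold change above 1.5 with an adjusted p-value no higher than 0.05. The alternative with a term for each experiment (replicate block) is given beside the tests because it changes the calls per gene. The titles give the experiment of each library, and libraries of the same experiment deviated together from their group means (correlation over genes 0.178 to 0.711 in 18 pairs, against -0.543 to 0.0295 in 36 pairs from different experiments). Deviations from a group mean sum to 0 over the experiments, so the second range is tied to the first and is not a separate result. Whether the experiments used separate cultures is not given in the sources used here, and p-values measure the spread between these libraries.

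Ratios within experiments used CPM scaled by TMM, with exact 95% binomial intervals, and a floor of 3 counts where control had 0. The floor and intervals cover counting error only. Other alternatives were size factors of the DESeq2 type, DESeq2 1.42.0, limma 3.58.1 on log2(TPM + 1) and log2(TPM + 0.1), leaving out the filter or asking for 10 counts in each library, leaving out the batch term, experiments 2 and 3 alone, the compared groups alone, tests per transcript, no fold threshold, and each library left out. The replicate block without each library, on experiments 2 and 3 alone and per transcript was chosen after seeing the data. The edgeR test per gene was checked in both models on simulated counts, in which genes were changed with ΔADAM alone. The summing per gene, the filter, the comparisons between constructs and the other methods were not checked in this way. The genes named were the members, TYRO3, transcripts with at least 10% of the TPM of their gene, 4 lists around the pathway, the 5 genes most correlated with the family, and OAS1-203 and P2RX7, which were added after their values were seen. Of these lists, 2 are given without a gene that is not reported here. Members, lists and tests were chosen with earlier results of these data known. Figures were drawn with matplotlib 3.10.9 and tables written with pandas 2.3.3, scipy 1.17.1 and numpy 2.4.6 in Python 3.11.15.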

Additional observations from a re-analysis of the deposited data

How the results depend on the processing

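The direction against control did not depend on the processing. All 426 alternative values of the log2 fold change of OAS1, OAS2, OAS3 and OASL over control were above 0, from 0.87 to 5.13, and 190 of them passed the threshold that the model with the batch term did not reach. The 426 values are refits of the same libraries, and their number adds no support. Those with no fold threshold repeat the values of the model with the batch term. The number of members called was 0 in each comparison with control in that model. It was 3, 3 and 3 for WT, ΔGS and ΔADAM with DESeq2 (OASL was not called), 4, 4 and 4 with no filter, and 4, 4 and 4 with the replicate block, also on experiments 2 and 3 alone. With no filter 2.22%, 3.03% and 3.48% of the 25269 genes tested were called in either direction. With 1 library left out the number of members called was 0 to 4 over both models. It was 4 in each with the replicate block and 0 in each with the batch term, apart from 1 (OAS1 with ΔADAM) without the ΔGS library of experiment 3. In that setting 2.93% of all genes tested were called in either direction with ΔADAM. The causes of these changes were not tested. At least 10 counts in every library left only OAS3 and OASL to test.

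Between constructs the replicate block called 0 members, as the batch term did, and the sign was not stable. With 1 library left out, WT against both variants ran from -1.03 to 0.20 for OAS1, -1.08 to 0.36 for OAS2, -0.87 to 0.32 for OAS3 and -0.62 to 0.22 for OASL, and ΔGS against ΔADAM from -0.84 to 0.64, -0.92 to 0.77, -0.69 to 0.66 and -0.44 to 0.57. With the replicate block and 1 library left out the ranges were -0.35 to -0.21, -0.21 to -0.07, -0.15 to 0.02 and -0.18 to 0.01, and -0.25 to 0.02, -0.25 to 0.01, -0.29 to 0.04 and -0.14 to 0.23. OAS3 with WT against both variants was 0.017 in the replicate block on experiments 2 and 3 alone. OASL with ΔGS against ΔADAM was -0.08 with the batch term, 0.0087 with the replicate block and 0.00039 and 0.0075 with limma at pseudocounts of 1 and 0.1.

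Over all genes, the calls against control with WT, ΔGS and ΔADAM were 6, 69 and 168 with the batch term, 355, 708 and 784 with the replicate block, 376, 609 and 670 with DESeq2, 562, 765 and 879 with no filter, 3, 4 and 5 with no batch term, 1, 1 and 1 with experiments 2 and 3 alone, 1, 1 and 11 with the compared groups alone, 2, 1 and 43 and 2, 6 and 20 with limma at pseudocounts of 1 and 0.1, 4, 4 and 4 per transcript (6, 6 and 4 with the replicate block), and 6, 107 and 186 with at least 10 counts in every library. The sets tested differ in size, so these calls are not shares of the same number. They held 15098 genes with the batch term, replicate block, DESeq2, limma and no batch term, and 25269 with no filter. Experiments 2 and 3 alone had 14960 genes, and 10 counts in every library left 11881. The compared groups alone had 14162, 14527 and 14700 genes, and the test per transcript 69182 transcripts. Depth limits the control library of experiment 1, where OAS1 and OAS2 had 0 and 2 counts.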
